A study of Macaca fascicularis and Mus musculus with 42 samples.

Results

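Cynomolgus monkey (Macaca fascicularis) cells that had been induced towards the germ line for 6 days in GK15 medium, and sorted as positive for a pair of germ cell reporters, were compared with undifferentiated embryonic stem cells (ESC) of the reporter lines. The comparison uses 6 of the 38 monkey libraries in a series of 42: GK15 day 6 libraries 1 and 3, and reporter ESC libraries 1, 2, 3 and 4. The labels put 1 more library in each group, GK15 day 6 library 2 and reporter ESC library 5. Both were left out because their PRDM1 level went against the label. The study made primordial germ cell-like cells (PGCLC) from monkey ESC in different media over a time course and read the 3′ ends of transcripts in bulk RNA, starting from 1 ng of total RNA. Levels are in RPM, the reads of a gene scaled to the total reads of the library, so that all libraries have the same total.

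By their labels, 5 of these libraries came from the line 656BTAG42, and reporter ESC library 2 came from 656BTAG63. Both lines, and therefore the control ESC too, carried Blimp1-tdTomato and TFAP2C-EGFP transgenes, Blimp1 being another name of PRDM1. The ESC had been cultured in AITS medium with basic FGF and IWR1, an inhibitor of WNT signalling. For induction the cells were grown as aggregates in GK15, which is GMEM with 15% KSR (a serum replacement). BMP4 was added at 200 ng/mL, SCF at 100 ng/mL, EGF at 50 ng/mL, LIF at 1000 U/mL and Y27632, a ROCK inhibitor, at 10 µM. BTAG positive cells, read here as positive for both reporters, were sorted on day 6. By its labels, the nearest group in the series was sorted with the same gate on the same day. It was induced with the same factors in aRB27, Advanced RPMI1640 with the B27 supplement (4 libraries, 3 of them labelled 656BTAG42). ESC from lines without transgenes gave another 5 libraries. By their titles, libraries 1 and 2 of these are CMK6, and the others carry other names. Transgene-free ESC library 1 had 1.10 M reads, with 8.18% of its RPM in ribosomal protein genes, against 19.3% to 25.7% in the others. The labels state neither replicate numbers nor separate cultures, so a p-value here measures only the spread between these samples.

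Primordial germ cells are the embryonic founders of eggs and sperm. In primates, BMP and WNT signals bring a few cells of the early embryo to express SOX17, TFAP2C and PRDM1, which together start the germ cell programme. These cells keep much of the pluripotency network but lose SOX2, and they later clear DNA methylation and migrate to the gonad. PGCLC are their counterparts in culture.

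Depth of the 6 libraries was 1.66 to 6.80 M reads (median 2.30), so that 1 read stood for 0.147 to 0.603 RPM, and 13586 to 15947 genes were detected per library. Ribosomal protein genes held 16.6% to 21.7% of the RPM in these libraries. PRDM1 (entry 102127621), which chose the libraries, was 119.5 and 138 RPM in GK15 libraries 1 and 3 and 0.59, 2.59, 0 and 0 RPM in reporter ESC libraries 1 to 4. TFAP2C (entry 102127991), the other gene of the gate, was 717 and 560.01 RPM against 2.94, 14.2, 4.40 and 6.46 RPM. The choice of libraries and the gate set their difference, so no test of it is given. Both are left out of the counts of list members and stay among the genes of the fit across all genes. The left-out library labelled GK15 day 6 library 2 held 0.50 RPM of PRDM1, 3.98 of SOX17 and 394 of SOX2, and the left-out library labelled reporter ESC library 5 held 253, 1211 and 16.8 RPM. Over the 97 other named genes that passed the threshold, the first lay nearer to the ESC mean for 93 and the second nearer to the GK15 mean for 55. With every library kept as labelled, limma called 1 of 9886 genes (0.0101%), while 1842 had an unadjusted p under 0.05. Every result below is therefore a result without those libraries.

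In GK15 day 6 cells the germ cell factor SOX17, the primitive streak factor T and the BMP target MSX2 rose from at or near 0 in ESC. The neural factor ZIC5, the contractile gene TAGLN, the matrix gene GPC4 and the MHC class I chain B2M fell to below 10 RPM from 34.95 RPM or more. The 10 GK15, aRB27 and ESC libraries were fitted together over the 9748 genes that reached 10 RPM in 2 or more of them. Against ESC, 1374 genes (14.1%) rose and 1050 (10.8%) fell in GK15, 2424 (24.9%) in all. The counts of list members below are to be read beside these shares, and several lie near them. A gene near 0 in 1 group was tested only because another group reached 10 RPM. This filter therefore sets the shares and medians of the lists in part. A gene was said to rise or fall when its Benjamini-Hochberg adjusted p from limma was under 0.05 and its difference on the log2(RPM + 1) scale was at least 1. All log2 differences below are GK15 minus ESC on this scale, with the standard error, and understate the change of genes with low levels. The median difference over all tested genes was 0.01. Differences of at least 4 were reached by 195 genes that rose and 121 that fell. In 65 called genes all 4 ESC libraries were listed at 0, and in 79 both GK15 libraries were. The groups did not overlap in 4573 of the tested genes (46.9%) and in 2392 of the called ones. For scale, the median absolute log2 difference between the GK15 libraries was 0.33, between pairs of ESC libraries it was 0.31 to 0.46, and between a GK15 and an ESC library it was 0.56 to 0.68. In bulk RNA, fewer cells of a type and less RNA per cell cannot be told apart.

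**Figure D1:**
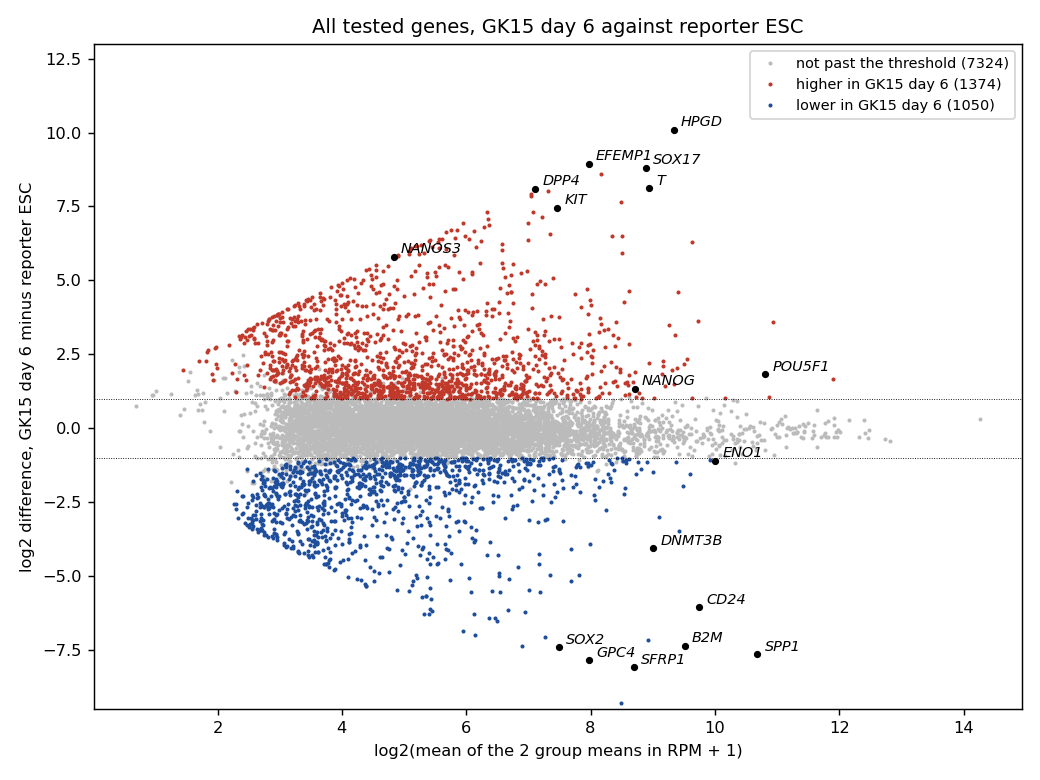
Each point is 1 of the 9748 tested genes. The x axis is log2 of the mean of the group means in RPM plus 1, the y axis the log2 difference of GK15 day 6 (n = 2) minus reporter ESC (n = 4), and the dotted lines lie at a difference of 1 in either direction. HPGD has the largest increase at 10.10, and among the labelled genes SFRP1 has the largest decrease at -8.09.

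Among transcription factors of the primate germ line, 6 of 9 measured members besides the gate genes rose, 1 fell and 2 did not pass the threshold (median difference 3.79, against 0.01 over all genes). The 6 that rose were at most 6.47 RPM in reporter ESC and met the filter through the GK15 and aRB27 libraries, where they were higher. The share and the median are therefore set in part by the filter and are not a result about the list. SOX17 (entry 101925698), the factor that starts the human and monkey germ cell programme, was 831 and 1062 RPM in GK15 libraries 1 and 3. It was 3.38, 3.45, 0 and 0 RPM in ESC libraries 1 to 4, so the groups were far apart, with a 554-fold ratio of means and a log2 difference of 8.81 ± 0.54 (limma adjusted p = 4.07e-08). TFCP2L1, a factor of the pluripotency network, stood at 75.4 and 65.7 RPM in GK15 and had no read in any of the 4 ESC libraries. This is at least 311-fold higher, where the bound takes 3 reads in the sum of the 4 ESC libraries as the limit of detection (0.227 RPM, counting error only). SOX15, a SOX factor of germ cells, was 66.6 and 80.8 RPM against 0.74, 0.43, 0 and 0 RPM. TFAP2A, a relative of TFAP2C, ARID5B, a chromatin-binding factor, and TCL1B, a coactivator of AKT, rose as well. PRDM14 was the 1 member that fell, to 28.7 and 28.9 RPM from 160.03, 152, 118 and 136 RPM (log2 difference -2.25 ± 0.22). PRDM14 is a transcription factor that germ cell formation needs in the mouse. KLF4 and SALL4, both factors of pluripotency, did not pass, with log2 differences of 0.12 ± 0.57 and 0.16 ± 0.24.

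Of 5 measured members of the germ cell RNA and chromatin list, 2 rose, 1 fell and 2 did not pass (median 0.68). NANOS3 (entry 102133760), which protects migrating germ cells from death, was 50.0 and 60.3 RPM in GK15 and listed at 0 in all 4 ESC libraries, at least 243-fold higher. DND1, a partner of NANOS proteins on messenger RNA, was 20.8 and 27.1 RPM against 6.91, 3.88, 6.59 and 7.54 RPM (log2 difference 1.81 ± 0.31). LIN28B, which blocks let-7 microRNA maturation, fell to 41.6 and 51.8 RPM from 99.0, 83.3, 163 and 136 RPM. The fall of LIN28B was 1.31 ± 0.34 on the log2 scale and its call was lost without GK15 library 1 (-1.15, limma adjusted p = 0.0995). Its paralog LIN28A did not pass (-0.31 ± 0.20), nor did PIWIL1, a piRNA-binding protein, at 14.2 and 6.03 RPM against 3.68, 4.75, 6.15 and 8.08 RPM. The other 13 of the 18 members of this list were under the filter on low values. Among them DDX4 and DAZL, RNA-binding proteins of gonadal germ cells, were 0.83 and 0 RPM and 0 and 1.21 RPM in GK15 libraries 1 and 3, and DPPA3 was 0 and 0.60 RPM. PIWIL2, MAEL, TDRD1 and STK31, also of later germ cells, were listed at 0 in both GK15 libraries. DND1 also did not pass against transgene-free ESC (log2 difference 1.195 ± 0.54, limma adjusted p = 0.128). It was 20.9 and 23.5 RPM in transgene-free ESC libraries 1 and 2 and at most 6.24 RPM in the others.

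**Figure D2:**
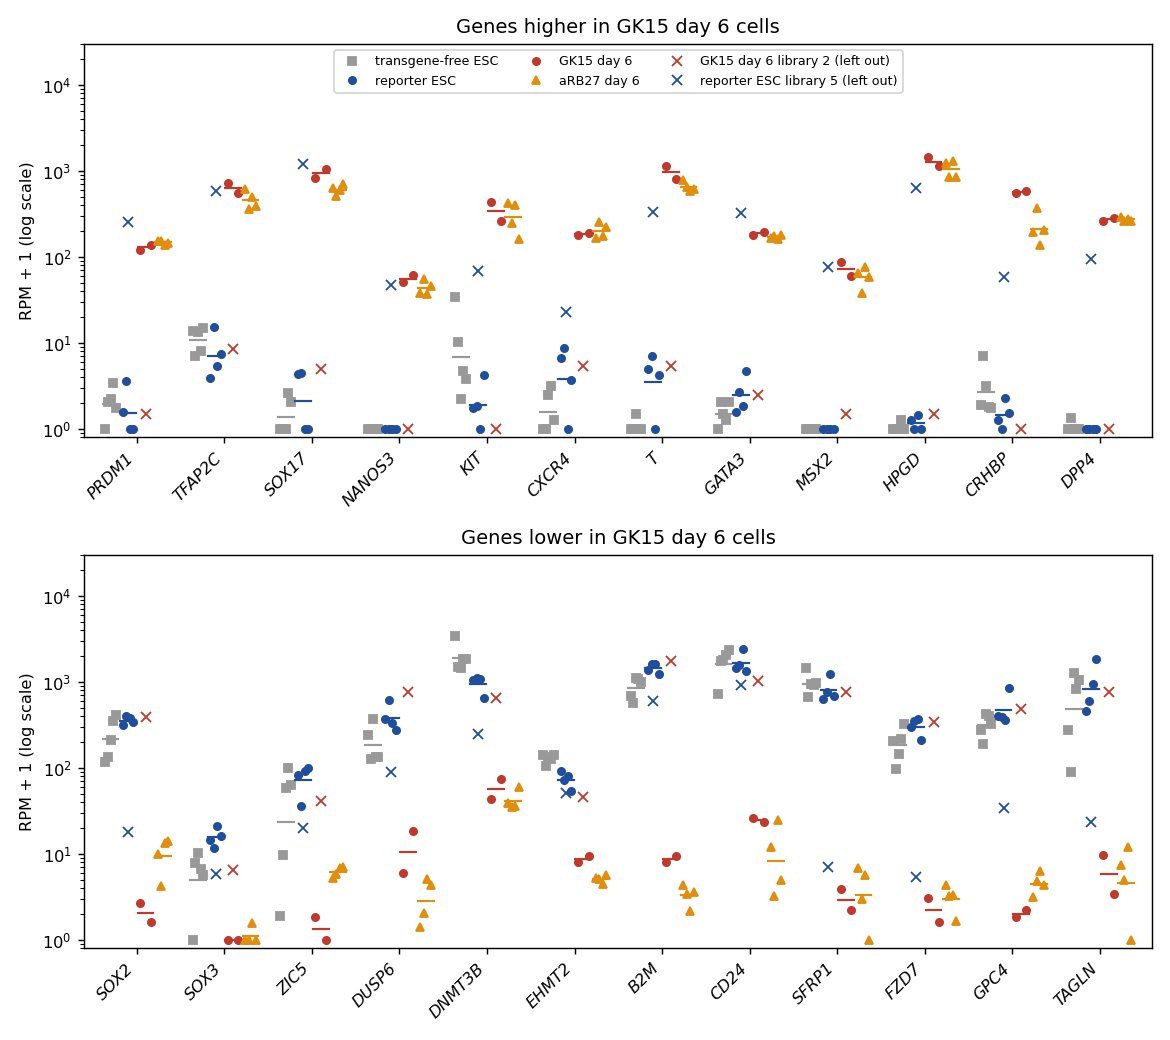
Points are single libraries, with RPM + 1 on a log axis, and bars are group means of the log values. Crosses mark the left-out libraries. For all 12 genes of the upper panel, the GK15 day 6 libraries (n = 2) lie above every reporter ESC library (n = 4), and for all 12 of the lower panel they lie below. The genes were picked with their values known, PRDM1 chose the libraries, and PRDM1 and TFAP2C are the genes of the gate. This order is therefore set by the choice and is no test. Of all tested genes, 46.9% had groups that did not overlap.

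Surface molecules that guide germ cells changed in both directions: 7 of 13 measured members rose and 4 fell (median 1.83). KIT (entry 102137242), the receptor for stem cell factor, was 437 and 263 RPM in GK15 against 0.74, 0.86, 0 and 3.23 RPM in ESC. Its log2 difference was 7.47 ± 0.50 (limma adjusted p = 8.07e-08), and the 5 transgene-free ESC libraries ran from 1.23 to 33.7 RPM, so they too lay below both GK15 libraries. CXCR4, the chemokine receptor that steers migrating germ cells, was 179 and 189 RPM against 5.74, 7.77, 0 and 2.69 RPM. Its log2 difference of 5.59 ± 0.61 became 4.94 without reporter ESC library 3. The genes for the ligands moved apart: KITLG, the ligand of KIT, was 153 and 178 RPM against 13.97, 22.9, 23.7 and 18.3 RPM, whereas CXCL12, the ligand of CXCR4, was 1.25 and 0.60 RPM against 65.9, 78.1, 123 and 61.4 RPM. PDPN, PECAM1, EPCAM and ALPL (tissue-nonspecific alkaline phosphatase) completed the members that rose, and EPCAM is a surface antigen often used to sort human PGCLC. EPCAM, at 227 and 266 RPM in GK15, did not pass against transgene-free ESC (1.18 ± 0.56, limma adjusted p = 0.148). It was 312 RPM in transgene-free ESC library 1 and at most 155 RPM in the others. CD24, a small surface glycoprotein of stem cells, showed the largest decrease of the list, to 25.0 and 22.3 RPM from 1457, 1566, 2438 and 1322 RPM (log2 difference -6.07 ± 0.58). PODXL, a sialomucin of stem cells, and THY1 fell with it.

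Core pluripotency genes split. POU5F1 (entry 102115117), which encodes OCT4, was 3383 and 2199.6 RPM in GK15 and 725, 1091, 672 and 676 RPM in reporter ESC. NANOG (entry 102114964), its partner, was 643 and 546 RPM against 246, 217, 179.8 and 317 RPM. Both rose, by 1.82 ± 0.28 and 1.33 ± 0.24 on the log2 scale (limma adjusted p = 0.000186 and 0.000755). Neither passed against the 5 transgene-free ESC libraries. There POU5F1 was 1443 to 1927 RPM, all below both GK15 libraries (log2 difference 0.77 ± 0.33, limma adjusted p = 0.109). NANOG was 880.1 RPM in transgene-free ESC library 1, above both GK15 libraries, and 176 to 425 RPM in the others, below both (0.60 ± 0.45, limma adjusted p = 0.367). SOX2 (entry 102140202), the third core factor and a driver of neural fate, was 1.67 and 0.60 RPM in GK15 against 311, 398, 375 and 337 RPM in reporter ESC. This decrease of 7.42 on the log2 scale (± 0.42, adjusted p = 1.96e-08) was accompanied by that of its relative SOX3, listed at 0 in both GK15 libraries and at 13.4, 10.8, 20.2 and 15.1 RPM in ESC. The 4 other measured members of the shared pluripotency list (DPPA4, TDGF1, TRIM71 and L1TD1) did not pass, so that 2 of 8 rose and 2 fell (median 0.10).

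Naive pluripotency factors gave 2 that rose among 3 measured (median 2.12), and 6 others were under the filter, KLF17 among them. TBX3, a T-box repressor, was 88.3 and 95.9 RPM in GK15 against 0, 0, 0.44 and 0 RPM. KLF5, a Krüppel-like factor, was 41.6 and 36.2 RPM against 7.65, 30.2, 4.40 and 3.77 RPM, so that ESC library 2 came close to the GK15 libraries. The log2 difference of KLF5, 2.12 ± 0.57, lost its call without GK15 library 1 (2.03) or GK15 library 3 (2.22) and was 2.72 without ESC library 2. The count of the list was then 1 without either GK15 library.

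Factors of the primed epiblast and of early neural tissue mostly fell: 7 of 12 measured members fell and 2 rose (median -2.40). ZIC5, a zinc finger factor of the neural plate, was 0.83 and 0 RPM in GK15 against 80.6, 35.0, 90.6 and 98.1 RPM (log2 difference -5.73 ± 0.43). DUSP6, a phosphatase induced by ERK signalling, was 5.0 and 17.5 RPM in GK15 and 367, 618, 331 and 278 RPM in ESC. Its log2 difference of -5.18 ± 0.54 was -4.37 without GK15 library 1 and -5.99 without GK15 library 3. ZIC2, SALL2, HESX1 and SOX11 also fell. The members that rose were OTX2, a factor of the anterior epiblast, at 74.95 and 69.3 against 32.2, 42.7, 18.02 and 34.5 RPM, and SALL3. OTX2 did not pass against transgene-free ESC, which held at most 29.3 RPM (2.44 ± 0.90, limma adjusted p = 0.0638). The count of 2 that rose was 0 without GK15 library 1 and 1 without ESC library 3 or ESC library 4.

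Of the primitive streak list, 5 of the 9 measured members rose and 4 did not pass (median 4.37). The 5 that rose were at most 6.04 RPM in reporter ESC and met the filter through GK15 and aRB27, where they were higher. The share and the median are therefore set in part by the filter and are not a result about the list. T (brachyury, entry 102121347), the T-box factor of the primitive streak that BMP and WNT induce before germ cell fate, was 1134 and 816 RPM in GK15 against 3.97, 6.04, 0 and 3.23 RPM. The log2 difference of T was 8.11 ± 0.54 (adjusted p = 8.07e-08) and 7.51 without reporter ESC library 3. CDX2 and EVX1, homeobox factors of the posterior streak, were 67.9 and 98.3 RPM and 84.5 and 127 RPM. Both were listed at 0 in every reporter ESC library, at least 367-fold and 466-fold higher. CDX1 and HAND1 rose too, while EOMES and MIXL1, which mark the nascent streak, did not pass (-0.64 ± 1.21 and 0.11 ± 0.59), nor did SNAI1 and SNAI2. MESP1, MESP2, TBX6 and PDGFRA, markers of committed mesoderm, were among the 8 members under the filter. Of these, MESP1 was 8.33 and 15.7 RPM in GK15 and at 0 in all 4 reporter ESC libraries. MESP2, TBX6 and PDGFRA were at most 2.41 RPM in GK15. The summed level of the whole list was 1170 to 1395 RPM in the GK15 libraries, against 48.4 to 109 RPM in ESC. Most of the sum in GK15 was T, so the sum says little about the other members.

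Markers of other cell types that the gate could admit were read as whole lists. For endoderm, 2 of 6 measured members rose (FOXA1 and GATA4), 2 fell (FOXA3 and CER1) and 10 were under the filter (median 0.99). The summed level was 119 to 143 RPM in the GK15 libraries, against 69.5 to 284 RPM in ESC, so that the groups overlapped, and TTR and AFP, secreted proteins of yolk sac and liver, were at 0 in both GK15 libraries. GATA4, a factor of endoderm and heart, was 34.2 and 59.1 RPM against 2.50, 0.86, 0 and 0 RPM. FOXA1, an endodermal pioneer factor, was 5.0 and 12.1 RPM and at 0 in all ESC libraries. CER1, a NODAL and BMP antagonist, was at 0 in both GK15 libraries and at 131, 190, 0 and 12.9 RPM in ESC, where library 3 overlaps GK15. The call of CER1 (-4.61 ± 1.49) was lost without GK15 library 1 or GK15 library 3 (both -4.61), without ESC library 1 (-3.79) and without ESC library 2 (-3.62), and its difference was -6.14 without ESC library 3. The count of members that fell was 0 without GK15 library 1, GK15 library 3 or ESC library 1, and 1 without ESC library 2, and the count that rose was 1 without aRB27 library 2.

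For amnion and trophoblast, 3 of 7 measured members rose and 1 fell (median 0.90), with a summed level of 639 to 681 RPM in the GK15 libraries, against 206 to 454 RPM in reporter ESC. In transgene-free ESC the sum was 252 to 602 RPM. Most of the sum in GK15 came from the keratins KRT19 (275 and 280 RPM) and KRT18 (144 and 159 RPM), and KRT18 did not pass (-0.73 ± 0.27). GATA3 was 178 and 197 RPM against 0.59, 1.73, 0.88 and 3.77 RPM, and GATA2 was 29.98 and 30.7 RPM against 0, 0.43, 0.44 and 0 RPM. Both are BMP-responsive factors of trophoblast and amnion, and KRT19, a keratin of simple epithelia, rose with them. VTCN1, a surface protein of amnion and trophoblast, went the other way and was listed at 0 in both GK15 libraries against 43.7, 57.0, 29.0 and 27.5 RPM in ESC. ISL1 and TFAP2B, factors of the amnion, were under the filter at 2.50 and 3.01 RPM and at 0 and 0.60 RPM. For blood, vessels and neurons, 11 of 12 markers were under the filter. The summed level of the list was 17.5 to 34.4 RPM in the GK15 libraries, against 23.7 to 33.7 RPM in ESC. TUBB3 was at 0 in both GK15 libraries and at most 4.32 RPM in reporter ESC, and PTPRC was at 0 in both groups. STMN2 was higher, at 3.75 and 15.7 RPM in GK15 against 0.29, 1.73, 0.88 and 0 RPM. CD34 was also higher, at 2.50 and 1.21 RPM against at most 0.15 RPM, whereas CDH5 and KDR were below every reporter ESC library. Transgene-free ESC reached 16.4 RPM of STMN2 and 3.64 RPM of CD34. The part of such cells in the results was not tested.

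Of the contractile and stromal list, 8 of 11 measured members fell and 2 rose (median -2.80). TAGLN, ACTA2, COL1A1, S100A6 and THY1, at most 8.74 RPM in GK15, met the filter through ESC, where they were higher. The share and the median are therefore set in part by the filter and are not a result about the list. TAGLN, an actin-binding protein of smooth muscle, was 8.74 and 2.41 RPM in GK15 against 455, 599.8, 950.4 and 1834 RPM. COL1A1, the main collagen of connective tissue, was 0.83 and 4.22 RPM against 215, 279, 346 and 133 RPM, and S100A6, a calcium-binding protein, was listed at 0 in GK15 and at 141, 37.5, 19.8 and 499 RPM in ESC. In each of these genes the highest GK15 value lay below the lowest ESC value, and in RPM the ESC libraries spread more widely than the GK15 libraries. Leaving out GK15 library 1 or GK15 library 3 moved the log2 difference of TAGLN (-7.17 ± 0.79) to -7.93 or -6.42 and that of COL1A1 (-6.22 ± 0.51) to -5.46 or -6.98. That of S100A6 (-6.44 ± 0.90) became -7.13 without ESC library 3 and -5.60 without ESC library 4. ACTA2, MYL9, TPM1, TPM2 and THY1 fell too, and DCN and COL1A2 rose, 1 of them passing without GK15 library 3. Against transgene-free ESC, COL1A2 (0.94 ± 1.14, limma adjusted p = 0.609), MYL9 (-1.48 ± 0.75, adjusted p = 0.174) and TPM2 (-0.55 ± 0.33, adjusted p = 0.253) did not pass. The summed level of the list was 1792 to 2017 RPM in GK15, 3378 to 6412 RPM in reporter ESC and 836 to 3972 RPM in transgene-free ESC. The transgene-free range of this sum thus spanned that of GK15. Most of the sum in GK15 was VIM, a member that did not pass (-0.65 ± 0.37). VIM was 1653 and 1853 RPM in GK15 libraries 1 and 3 and 319 to 2535 RPM in transgene-free ESC, so the sum says little about the other members.

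Direct targets of BMP signalling rose in GK15 cells, which had received BMP4: 7 of 9 measured members rose and 2 did not pass (median 3.01). ID2, an inhibitor of helix-loop-helix factors, was 628 and 414 RPM against 31.8, 40.1, 98.5 and 15.6 RPM (log2 difference 3.72 ± 0.51). MSX2, a homeobox factor, was 86.2 and 58.5 RPM and BMPER, a secreted BMP modulator, was 22.5 and 19.3 RPM, both against 0 in all 4 ESC libraries, at least 319-fold and 92.2-fold higher. ID1, ID3, MSX1 and BAMBI rose as well. The summed level of the list was 1391 to 1926 RPM in GK15 against 371 to 528 RPM in ESC, with no overlap.

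Among the components of BMP, activin and NODAL signalling, 4 of 16 measured members rose and 6 fell (median -0.57). The receptors BMPR1A, BMPR1B and BMPR2 rose. BMPR1A was 272 and 194 RPM against 59.4, 66.9, 81.3 and 70.04 RPM, and BMPR1B was 23.7 and 19.9 RPM against 1.62, 1.29, 2.2 and 5.39 RPM. The ligand gene BMP4 fell to 1.67 and 0 RPM from 6.47, 3.88, 10.99 and 26.4 RPM, and BMP7 fell too, while the ligand genes NODAL and GDF3 did not pass (-1.37 ± 1.07 and -0.63 ± 0.93). The antagonists diverged. FST, which binds activin, was 0.83 and 0 RPM in GK15 against 264, 214, 319 and 143 RPM in ESC, whereas SOSTDC1, which binds BMPs, was 183 and 138 RPM against 0, 0, 0.88 and 0 RPM. The count of members that fell was 2 without GK15 library 1 and 2 without GK15 library 3. CER1, LEFTY1 and SMAD1 are the remaining members of that count.

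Of 10 measured members of the WNT list, 4 rose and 3 fell (median 0.40). The ligand genes WNT3 and WNT5B rose, WNT3 to 26.7 and 27.1 RPM from 1.77, 2.16, 0 and 0.54 RPM and WNT5B to 216 and 243 RPM from 5.30, 6.04, 7.03 and 2.69 RPM, and WNT5A did not pass (1.22 ± 0.50). AXIN2, a feedback target of the pathway, was 44.97 and 69.9 RPM against 11.03, 15.97, 12.8 and 1.62 RPM. DKK4, a secreted antagonist and target, was 153 and 323 RPM against 20.2, 28.9, 0 and 0.54 RPM. Its log2 difference of 5.32 ± 1.11 was 5.96, 6.13, 4.495 and 4.70 without ESC libraries 1, 2, 3 and 4 in turn. The receptors FZD7 and FZD5 and SFRP1, a secreted decoy of WNT, fell, and its relative SFRP2 did not pass (-0.42 ± 0.36). SFRP1 was 2.91 and 1.21 RPM in GK15 against 639, 767, 1229 and 679.9 RPM in ESC, and FZD7 was 2.08 and 0.60 RPM against 294, 351, 365 and 210.1 RPM, decreases of 402-fold and 228-fold in the means.

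Of the FGF and ERK feedback list, 3 of 14 measured members rose and 4 fell (median 0.05). FGFR1 was 23.3 and 25.9 RPM in GK15 against 227, 218, 336 and 144 RPM, and the ligand gene FGF2 was 29.6 and 13.3 RPM against 127, 199, 173 and 194 RPM (log2 differences -3.12 ± 0.32 and -3.04 ± 0.31). FGFR2 and DUSP6 also fell, and the receptor FGFR3 did not pass (0.32 ± 0.39). DUSP4, another ERK phosphatase, SPRY1, a feedback inhibitor, and ETV5, an ERK-driven factor, rose. DUSP4 was 113 and 150.1 RPM against 12.7, 20.3, 23.7 and 35.6 RPM, opposite to DUSP6.

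In the LIF and STAT3 list the shared receptor chain rose. IL6ST, the gp130 subunit, was 237 and 238 RPM in GK15 against 26.5, 25.9, 31.2 and 37.7 RPM in ESC (log2 difference 2.94 ± 0.23), and IL6R was 98.7 and 163 RPM against 0.74, 1.29, 8.35 and 2.15 RPM. LIFR, the specific LIF receptor, did not pass (-0.28 ± 0.32). LIF itself fell to 1.67 and 0 RPM from 18.5, 11.2, 1.76 and 12.9 RPM, ESC library 3 being nearly at the GK15 level. Its log2 difference of -2.58 ± 0.72 lost its call without GK15 library 3 (-1.87) and was -3.29 without GK15 library 1 and -3.19 without ESC library 3. In all, 2 of 9 measured members rose and 2 fell (median 0.75), the second of these being SOCS2, and the count that fell was 0 without GK15 library 3. STAT3 and its feedback inhibitor SOCS3 did not pass (0.22 ± 0.50 and 1.11 ± 0.50).

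**Figure D3:**
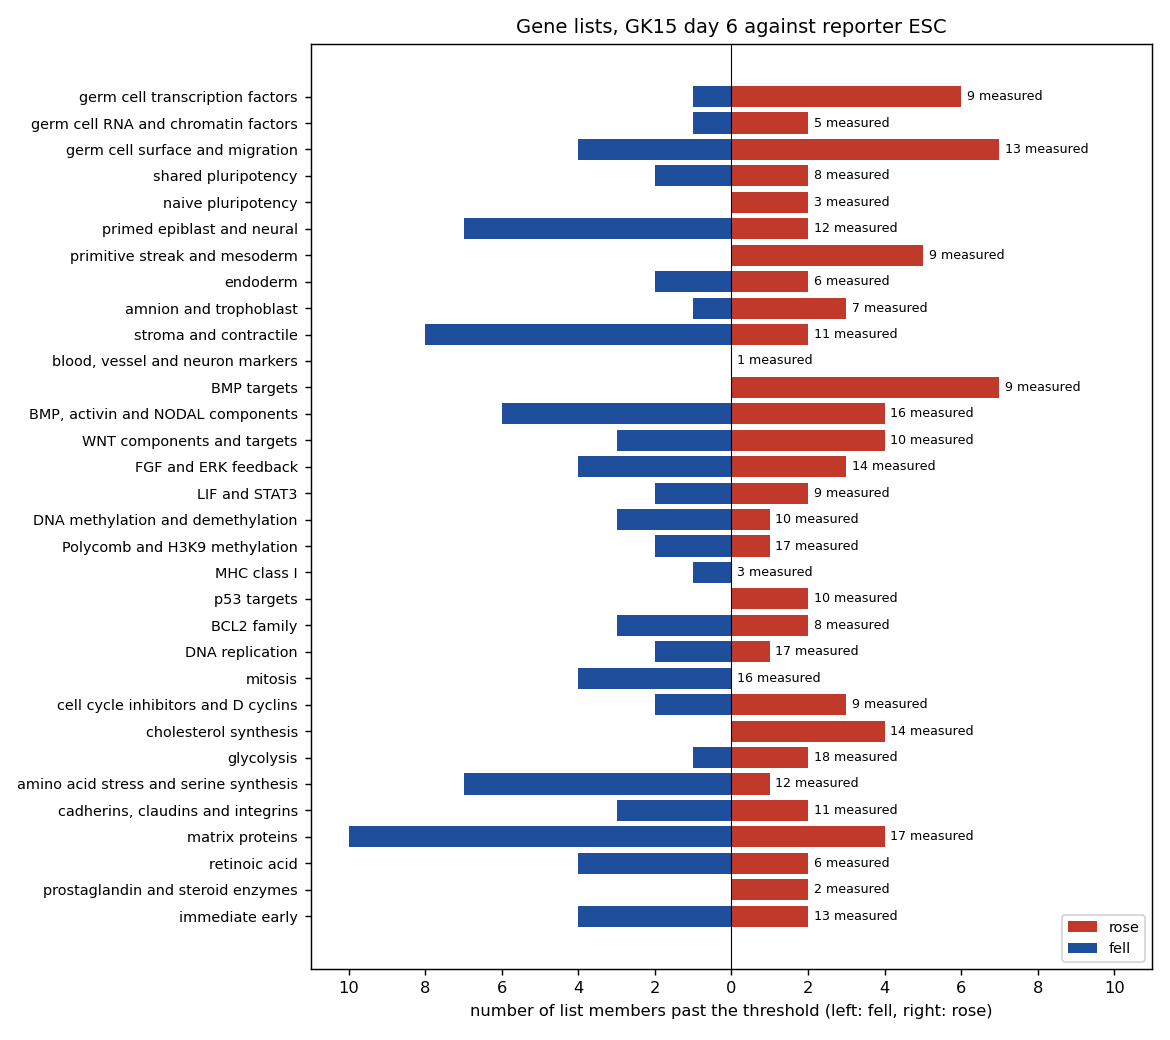
Bars give, for each gene list, the number of measured members that rose (right) or fell (left) in GK15 day 6 cells against reporter ESC by the threshold of the text, PRDM1 and TFAP2C excluded. BMP targets have 7 of 9 members that rose and matrix proteins 10 of 17 that fell, against 14.1% and 10.8% of all tested genes. The filter on low values sets such shares in part.

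Enzymes that lay down DNA methylation de novo fell, and the maintenance machinery did not pass. DNMT3B was 42.1 and 73.5 RPM in GK15 against 1046, 1106, 1090.1 and 644 RPM, and DNMT3A was 7.08 and 8.44 RPM against 76.2, 50.5, 66.8 and 74.4 RPM. The demethylase gene TET3 was at 0 in both GK15 libraries and at 13.97, 7.34, 17.1 and 8.62 RPM in ESC, at least 15.9-fold lower (floor of 3 reads over both GK15 libraries, 0.739 RPM). DNMT1 and its cofactor UHRF1 differed by -0.30 ± 0.21 and -0.87 ± 0.59 without passing. In total 1 of 10 measured members rose and 3 fell (median -0.29). TET2 was the member that rose, and its call was lost without GK15 library 1, GK15 library 3 or ESC libraries 1, 2 or 4, each of which leaves a count of 0.

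Of the Polycomb and H3K9 methylation list, 14 of 17 measured members did not pass, 2 fell and 1 rose (median 0.01). EHMT2 (G9a), which places H3K9 dimethylation, fell to 7.08 and 8.44 RPM from 89.7, 70.3, 80 and 52.3 RPM (log2 difference -3.06 ± 0.30). JARID2, a Polycomb cofactor, was 46.6 and 63.3 RPM against 174, 172, 264 and 138 RPM. BMI1, a Polycomb ring finger protein, rose to 186 and 130.2 RPM from 7.65, 10.4, 7.03 and 18.9 RPM. The count of 1 that rose was 2 without GK15 library 1 or ESC library 3. EZH2, the H3K27 methyltransferase, differed by -0.18 ± 0.19.

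In the MHC class I list 1 of 3 measured members fell (median 0.20). B2M (entry 101867173), the invariant chain of MHC class I, was 7.08 and 8.44 RPM in GK15 against 1355, 1629.9 and 1593 RPM in ESC libraries 1 to 3 and 1237 RPM in ESC library 4. The log2 difference of -7.37 ± 0.27 (limma adjusted p = 5.99e-10) was a 187-fold decrease of the mean, and the transgene-free ESC held 565 to 1097 RPM. Of the other list members, CALR and PDIA3, chaperones of the endoplasmic reticulum, did not pass, and 7, such as TAP1 and NLRC5, were under the filter.

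Mitosis genes fell in part. Of 16 measured members 4 fell, MKI67, PLK1, BUB1 and CDC20, and 12 did not pass (median -0.77). PLK1, a mitotic kinase, was 79.5 and 96.5 RPM against 215, 313, 266 and 188 RPM. BUB1, a checkpoint kinase, was 132 and 107 RPM against 282, 449, 303 and 213 RPM, and CDC20, which activates the anaphase-promoting complex, was 81.2 and 83.8 RPM against 189, 326, 154 and 159 RPM. In these 3 genes the groups were separate and the decrease of the mean was 2.51-fold to 2.79-fold.

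Of 17 DNA replication genes, 14 did not pass (median -0.14). MCM2, a subunit of the replicative helicase, rose to 524 and 505 RPM from 273, 233, 193 and 248 RPM, while its partner MCM4 fell to 104 and 116 RPM from 268, 237, 166 and 230.1 RPM. CCNE1, the cyclin of S-phase entry, was 23.3 and 33.8 RPM against 98.3, 57.8, 60.2 and 67.3 RPM. The difference of MCM4, -1.01 ± 0.23, no longer reached the threshold without GK15 library 1 (-0.93) or ESC libraries 1, 2 or 4 (-0.92, -0.98 and -0.99), and that of CCNE1, -1.27 ± 0.27, lost its call without GK15 library 1 (-1.02). The count of 2 that fell was 0 without GK15 library 1 and 1 without ESC libraries 1, 2 or 4.

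Cell cycle inhibitors and cyclins gave 3 of 9 measured members that rose and 2 that fell (median 0.76). CDKN1C (p57), a CDK inhibitor, was 0.42 and 0.60 RPM against 39.3, 27.2, 60.2 and 46.9 RPM in reporter ESC. Transgene-free ESC held 0.91 to 39.4 RPM of CDKN1C, and against these the difference did not pass (-2.94 ± 1.14, limma adjusted p = 0.0777). CCND2, a D cyclin, was 414 and 668 RPM against 115, 68.6, 143 and 219 RPM. MYC was 8.33 and 6.03 RPM against 73.5, 98.0, 48.4 and 81.4 RPM, and its relative MYCN rose, as did RB1, and the count of 3 was 1 without GK15 library 1.

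Of the p53 targets, 2 of 10 measured members rose (median 0.55), against 14.1% of all tested genes. PHLDA3, an AKT inhibitor, was 245 and 215 RPM against 15.4, 44.9, 15.0 and 20.5 RPM. TP53INP1 was 53.3 and 56.7 RPM against 10.2, 14.2, 23.3 and 4.31 RPM. CDKN1A, the classical p53 target, did not pass. In the BCL2 family 2 of 8 rose and 3 fell (median 0.33). PMAIP1 (NOXA), which promotes apoptosis, was 94.9 and 52.4 RPM against 498, 585, 789.9 and 258 RPM. BCL2L11 (BIM), with the same effect, fell to 3.75 and 2.41 RPM from 17.1, 26.8, 22.0 and 8.62 RPM, whereas BMF, also pro-apoptotic, rose to 51.2 and 33.2 RPM from 7.50, 4.32, 5.71 and 1.62 RPM. BCL2L1, which protects cells, rose and BID fell, and without GK15 library 1 the count that rose was 1.

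Genes of the amino acid response fell: 7 of 12 measured members of that list fell and 1 rose (median -1.73). TRIB3, a target of ATF4, was 2.91 and 1.81 RPM in GK15 against 15.4, 28.1, 63.7 and 17.2 RPM in ESC. ASNS, asparagine synthetase, PHGDH and SHMT2 of serine and glycine synthesis, and SLC7A11, the cystine transporter, also fell. ATF3, a stress-induced factor, was 2.91 and 0.60 RPM against 13.2, 50.9, 10.6 and 8.62 RPM, and VLDLR, a lipoprotein receptor, was 9.58 and 4.82 RPM against 44.1, 57.8, 90.99 and 63.6 RPM. Without GK15 library 3 the calls of ATF3 (-2.76 ± 0.62) and VLDLR (-3.01 ± 0.74) were lost at -2.11 and -2.57, and without GK15 library 1 ATF3 was at -3.40. ATF4 itself, which is regulated largely at translation, did not pass (-0.29 ± 0.20). DDIT4, an inhibitor of mTORC1, was the member that rose, to 204 and 229 RPM from 25.0, 30.6, 94.1 and 16.7 RPM.

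Cholesterol synthesis genes rose in part, 4 of 14 measured members, while 10 did not pass (median 0.81). MSMO1, an enzyme of the later steps, was 473 and 644 RPM against 199, 165, 153 and 258 RPM. INSIG1, which restrains the pathway, was 42.5 and 54.3 RPM against 10.0, 33.2, 8.35 and 18.3 RPM, and HMGCS1 rose as well. The call of INSIG1 (1.60 ± 0.42) was lost without GK15 library 3 (1.43), which left a count of 2.

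In the glycolysis list 2 of 18 measured members rose and 1 fell (median -0.14), against 14.1% and 10.8% of all tested genes. ENO1 (enolase) was 598 and 681 RPM against 1484, 1896, 1001 and 1259 RPM, with a log2 difference of -1.10 ± 0.31 that lost its call without GK15 library 1 (-1.01), GK15 library 3 (-1.197) or ESC library 2 (-0.95). PFKL and PDK1, a phosphofructokinase and the kinase that restrains pyruvate entry, rose by 1.03 ± 0.27 and 1.07 ± 0.29. PFKL lost its call without GK15 library 3 (0.79) or ESC library 4 (0.94) and against transgene-free ESC (0.61 ± 0.31, limma adjusted p = 0.175). PDK1 lost its call without GK15 library 3 (0.88), ESC library 3 (0.99) or ESC library 4 (0.92). The count that rose was thus 0 without GK15 library 3 or ESC library 4. The count that fell was 0 without GK15 library 1 or ESC library 2 and 2 without GK15 library 3 or ESC library 3.

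Matrix genes mostly fell, 10 of 17 measured members falling and 4 rising (median -2.29). GPC4 (entry 102136988), a heparan sulfate proteoglycan of the cell surface, was 0.83 and 1.21 RPM in GK15 against 395, 387, 361 and 856 RPM, a 489.8-fold decrease of the mean (-7.86 ± 0.37). SPP1, the secreted protein osteopontin, was 8.33 and 15.1 RPM against 719, 5013, 1890.2 and 5468 RPM, a wider range between ESC libraries than in the other 9 of the 10 largest decreases, and its difference of -7.66 ± 0.67 was -8.25 without ESC library 1. FN1, LAMB1, NID1, SPARC, VCAN, GPC3, COL5A1 and COL18A1 fell too. EFEMP1, a fibulin, and COL2A1, the collagen of notochord and cartilage, went against the group. EFEMP1 was 559.7 and 438 RPM and at 0 in every reporter ESC library (at least 2202-fold higher, with up to 6.13 RPM in transgene-free ESC), and COL2A1 was 801 and 634 RPM against 1.32, 0.43, 5.71 and 5.93 RPM. LAMA5, the laminin chain of epithelial basement membrane, and FBN2 rose as well.

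In the list of cadherins, claudins and integrins 2 of 11 measured members rose and 3 fell (median -0.02). ITGA1, a collagen receptor, was 54.1 and 42.2 RPM against 9.12, 2.16, 9.23 and 9.16 RPM. The fibronectin and vitronectin receptor chains ITGA5 and ITGAV fell, ITGA5 to 15.8 and 7.84 RPM from 59.9, 73.4, 64.2 and 84.6 RPM and ITGAV to 22.1 and 30.7 RPM from 52.1, 143, 145 and 274 RPM, together with their partner ITGB1. The call of ITGA5 (-2.54 ± 0.61) was lost without GK15 library 3 (-2.08). CDH2, N-cadherin, did not pass (0.41 ± 0.30), and CDH1, E-cadherin, was under the filter at 0.42 and 1.21 RPM in GK15 and at most 4.32 RPM in reporter ESC.

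Of the retinoic acid list, all 6 measured members passed, 4 falling and 2 rising (median -1.86), while 8 members, STRA8 among them, were under the filter. CRABP1, CRABP2 and RARG, at most 2.91 RPM in GK15, met the filter through ESC, where they were higher. The share of 6 is therefore set in part by the filter and is not a result about the list. CRABP2, which carries retinoic acid to the nucleus, was 2.50 and 1.81 RPM in GK15 against 153, 267, 193 and 52.3 RPM. CRABP1, its relative in the cytoplasm, was 2.91 and 2.41 RPM against 14.7, 20.7, 17.1 and 60.9 RPM and did not pass against transgene-free ESC (-1.96 ± 0.72, limma adjusted p = 0.0611). The receptor RARG was 1.67 and 1.81 RPM against 8.68, 6.04, 15.8 and 22.6 RPM, and its call (-2.23 ± 0.55) was lost without GK15 library 1 (-2.19). RXRA fell, and STRA6 and DHRS3, for uptake and reduction of retinoids, rose. The count that fell was 2 without ESC library 3, and the count that rose was 1 without GK15 library 1 and 0 without GK15 library 3.

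The largest increase of all named genes was that of HPGD (entry 102140664), the enzyme that inactivates prostaglandins, which was 1449.5 and 1138 RPM in GK15 against 0.29, 0, 0.44 and 0 RPM, and the transgene-free ESC held at most 0.27 RPM. Its log2 difference was 10.10 ± 0.25 (limma adjusted p = 9.08e-12). SLCO2A1, which carries prostaglandins into the cell, rose to 29.2 and 30.7 RPM from 0.74, 0.43, 3.08 and 0 RPM. These were the 2 measured members of 11 listed.

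The other leading increases were in genes of varied roles. CRHBP (entry 101866788), a binding protein of corticotropin-releasing hormone, was 557 and 591 RPM against 0.29, 0, 1.32 and 0.54 RPM. DPP4 (CD26), a surface peptidase, was 264 and 285 RPM and at 0 in all 4 reporter ESC libraries, at least 1212-fold higher. WNT16, a WNT ligand gene, was 337 and 187 RPM against 0.15, 0, 0 and 0 RPM, and ST8SIA6, a sialyltransferase, was 284 and 241 RPM against 0.15, 0, 0.44 and 0 RPM. In each of these genes the ESC values are no more than a few reads. Among the decreases PRKCB, a protein kinase C, and IQGAP2, a scaffold of the actin cytoskeleton, were at 0 in both GK15 libraries. PRKCB was 120.5, 213, 163 and 59.8 RPM and IQGAP2 121, 85.4, 180.2 and 99.1 RPM in ESC, at least 188-fold and 164-fold lower.

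Immediate early genes varied widely between the ESC libraries. EGR1, induced by ERK, was 436 and 509 RPM in GK15 against 63.8, 251, 25.9 and 12.9 RPM, and EGR3 was 112 and 206 RPM against 10.0, 155, 2.2 and 1.08 RPM, so that ESC library 2 lay inside the GK15 range of EGR3. The call of EGR1 (3.25 ± 0.81) was lost without GK15 library 3 (3.13), and its difference was 4.03 without ESC library 2 and 2.63 without ESC library 4. EGR3 (3.89 ± 1.197) lost its call without GK15 library 1 (4.32), GK15 library 3 (3.45), ESC library 3 (3.32) or ESC library 4 (3.12) and was 5.19 without ESC library 2. In all 2 of 13 measured members rose and 4 fell (median 0.45), against 14.1% and 10.8% of all tested genes. JUN, IER3, ATF3 and MYC were those that fell. The count that rose was 0 without GK15 library 3 and 1 without GK15 library 1, ESC library 3 or ESC library 4, and the count that fell was 2 without GK15 library 1, GK15 library 3 or ESC library 4.

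Over all lists, 164 members other than the gate genes passed against reporter ESC. With transgene-free ESC as the control, 138 of them passed in the same direction, 3 (SOX3, LIF and JUN) were under the filter and 23 did not pass, each with the same sign. Besides the genes given above, these were RXRA (limma adjusted p = 0.0546), FOXA3 (0.0614), LEFTY1 (0.0725), CER1 (0.0726), IER3 (0.127), STRA6 (0.171), SHMT2 (0.175), SOCS2 (0.24), ITGB1 (0.265), SMAD1 (0.34), BID (0.381) and FZD5 (0.789). Of the 64 counts of members that rose or fell, 10 became smaller and 9 larger by over 1.5 times with this control. The count that rose became 0 for shared pluripotency and 1 each for germ cell RNA factors, stromal genes, glycolysis and retinoic acid. The count that fell became 0 for endoderm and for LIF and STAT3, 3 for BMP components, 2 for immediate early genes and 1 for cell cycle inhibitors. Larger counts rose in the FGF and ERK list (6), the immediate early list (6) and the p53 targets (4). Larger counts fell for integrins and cadherins (6), DNA replication (4), glycolysis (3), MHC class I (2), amnion and trophoblast (2) and naive pluripotency (1).

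GK15 day 6 cells were then compared, in the same fit, with the 4 aRB27 libraries labelled as BTAG positive cells of day 6. By their labels these share the gate and the day but not the medium. If the table columns stood in alphabetical order of their names, aRB27 library 2 would be from day 10. Of 9748 genes 6 (0.0616%) were higher in GK15 and 5 (0.0513%) lower, 11 in all (0.113%), while 845 had an unadjusted p under 0.05, and the groups did not overlap in 2028 genes (20.8%). The median difference over all genes, GK15 minus aRB27, was 0.11. Among the 315 measured members of the gene lists, COL5A1, a fibrillar collagen chain, was the 1 that passed. It was 8.33 and 6.63 RPM in GK15 libraries 1 and 3 and 31.7, 24.1, 32.8 and 29.1 RPM in aRB27 libraries 1 to 4, a difference of -1.84 ± 0.26 (limma adjusted p = 0.0267), with 21.3 to 26.8 RPM in reporter ESC.

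HAPLN1, which links hyaluronan to proteoglycans, was 44.97 and 44.6 RPM in GK15 against 4.65, 3.76, 7.62 and 1.32 RPM in aRB27 and 0 in every reporter ESC library. PDZK1, a scaffold for membrane transporters, was 211 and 163 RPM against 33.9, 21.9, 31.1 and 24.5 RPM, and AASS, an enzyme of lysine breakdown, was 353 and 279.7 RPM against 99.4, 80.6, 87.9 and 91.95 RPM. These 3 genes also rose against ESC. PTRF (cavin-1) and FDX1, a mitochondrial electron carrier, were higher in GK15 than in aRB27 but did not pass against ESC. PTRF was 36.2 and 39.2 RPM against 3.81, 2.41, 2.35 and 4.63 RPM and FDX1 was 138 and 153 RPM against 50.8, 38.0, 29.3 and 32.4 RPM.

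On the other side SPON2, a secreted matrix protein, was 3.33 and 1.21 RPM in GK15 against 22.9, 93.1, 42.2 and 25.8 RPM in aRB27. FAM20C, a kinase of secreted proteins, was 2.08 and 2.41 RPM against 48.7, 14.5, 49.3 and 14.6 RPM, and its fall against ESC (-1.89 ± 0.51) was lost without GK15 library 1 (-1.81) or GK15 library 3 (-1.96). FAM129A was 2.50 and 1.81 RPM against 15.7, 23.1, 16.4 and 24.5 RPM, and WBSCR17, a glycosyltransferase, was 2.91 and 1.81 RPM against 21.6, 13.3, 17.6 and 9.92 RPM. The log2 differences of these 10 genes ran from -3.70 to 3.25 with limma adjusted p-values of 0.0267 to 0.0489. The count of 11 rested on single libraries: it was 0 without GK15 library 1, GK15 library 3 or aRB27 library 3, 1 without aRB27 library 1, 4 without aRB27 library 2, 18 without ESC library 2 and 27 without ESC library 4.

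Several genes of the comparison with ESC lay apart between the media without passing. SOX2 was 8.89, 3.22, 12.3 and 13.2 RPM in aRB27, all above both GK15 libraries (-2.19 ± 0.42, limma adjusted p = 0.0625), and B2M was 3.39, 2.41, 1.17 and 2.65 RPM, all below them (1.404 ± 0.27, adjusted p = 0.0691). CRHBP was 193, 367, 139 and 204 RPM in aRB27, again below both GK15 libraries (1.43 ± 0.38, adjusted p = 0.172). SOX17, NANOS3 and KIT differed by 0.63 ± 0.54, 0.37 ± 0.32 and 0.24 ± 0.50. A p that misses the threshold does not show that the media act alike.

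**Figure D4:**
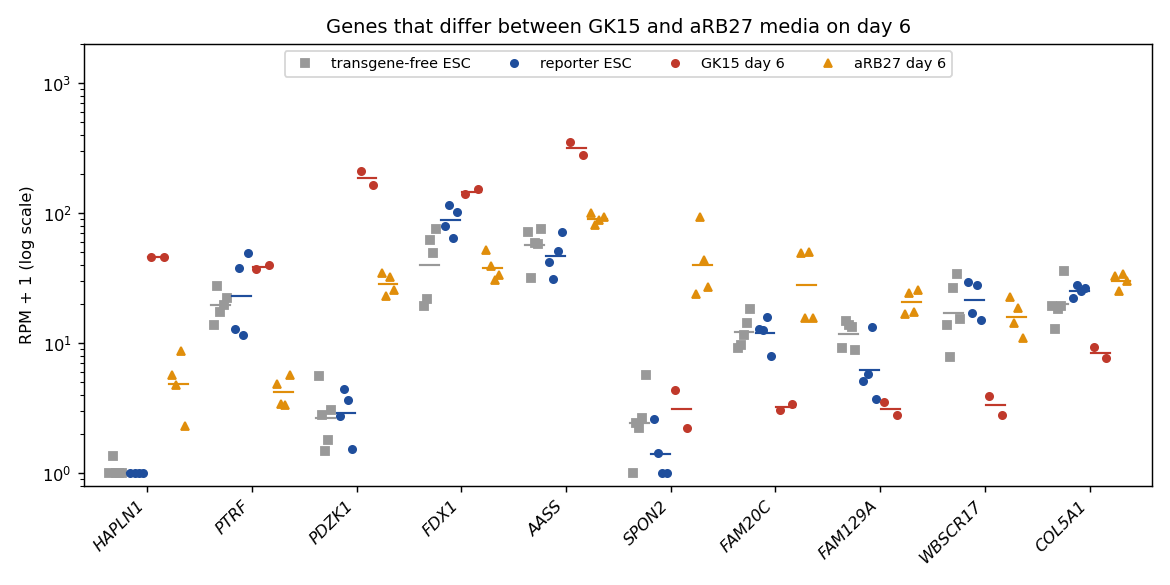
Points are single libraries, with RPM + 1 on a log axis, for the 10 named genes that passed between GK15 and aRB27 on day 6, and bars are group means of the log values (GK15 n = 2, aRB27 n = 4, reporter ESC n = 4, transgene-free ESC n = 5). HAPLN1 stands at 44.97 and 44.6 RPM in the GK15 libraries and at most at 7.62 RPM in aRB27, and SPON2 is below every aRB27 library in both GK15 libraries.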

How the data were processed

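The values are those of the authors' deposited table of the monkey libraries, in RPM (reads scaled to the library total), per the file name. The submitters' processing notes list TopHat 1.4.1, Cufflinks 2.2.0, cutadapt 1.3 and, for mouse, GRCm38, and give them no role. For monkey, the build was not given in the sources used here. Coordinates and sequences are therefore left out. The table had 26018 entries, 9295 of them unnamed LOC entries. Low values are whole multiples of the RPM of 1 read, and with a tolerance of 0.1 reads 99.4% to 99.7% of the values up to 100 reads were whole in the 6 libraries, so reads could be recovered for the alternatives. Whether the counting used strand or how it treated near-identical genes is not given.

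Tests were made with limma 3.58.1 in R 4.3.3 on log2(RPM + 1) with an intensity trend, in 1 fit of 3 groups and 10 libraries. The same code was run on simulated reads with an equal dispersion for all genes, a simpler case than these data. That run checks the code alone and does not bear on the calls made here. Genes needed at least 10 RPM in at least 2 of these libraries. A call needed a Benjamini-Hochberg adjusted p under 0.05 over all tested genes and a log2 difference of at least 1. The design was written for counts or normalized values alike, and RPM led to limma. The members, gene lists, tests and alternatives were chosen with earlier results of these data known. There were 32 lists with 452 symbols, 437 of them with an entry and 315 measured. Lists are described by counts and medians.

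Genes named by rule were SOX2, NANOG, POU5F1, NANOS3, SOX17, TFAP2C and PRDM1, and from each list up to 3 called members, taken by the size of their difference. The rule adds the 10 largest increases and 10 largest decreases against ESC, and up to 6 in each direction against aRB27, whose groups did not overlap, without LOC entries. Further list members, and their values, were named after the values were seen. Some genes that the rule names are not reported here. Folds against a group at 0 use a floor of 3 reads over that group.

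Other settings changed the pseudocount (0.1 or 10), the filter (none, or a mean of 20 RPM), the scaling (median of ratios, or quantiles), the prior (robust) and the threshold (adjusted p only, or a log2 difference of 2). Recovered reads were tested in edgeR 4.0.16 by quasi-likelihood and in DESeq2 1.42.0. Further settings were other sets of libraries, transgene-free ESC as control, the title code as a block, and each library left out in turn. A fit of all reporter groups without the 6 libraries whose PRDM1 level goes against their gate was added after seeing the data. If the 33 columns of reporter lines stood in alphabetical order of their names, 9 would be in another group. The left-out libraries are among these. GK15 day 6 library 2 would be reporter ESC, and reporter ESC library 5 would be GK15 BTAG positive cells of day 2. Whether the columns are misnamed was not tested. The 6 libraries compared keep their group in both readings, but their line and title code can differ, and aRB27 day 6 library 2 would belong to another day.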

Additional observations from a re-analysis of the deposited data

Results flagged for a closer look

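In 206 groups of 4 libraries (reporter ESC or aRB27 day 6, over the named genes) the highest or lowest library was set against the other 3. For continuous values chance marks about 1 group in 20 in such a check, and 17 were marked. A group with reads in 1 library and 0 in the other 3 is always marked, and a group wholly at 0 never is. The number marked can therefore not be set against that rate.

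In reporter ESC library 2, POU5F1 (1091 RPM, the others at most 725), KLF5 (30.2 RPM, the others at most 7.65), ATF3 (50.9 RPM, the others at most 13.2) and EGR3 (154.9 RPM, the others at most 10.0) stood above the other ESC libraries. ITGA1 stood below them there (2.16 RPM, the others at least 9.12). In reporter ESC library 4, GPC4 (856 RPM) and CRABP1 (60.9 RPM) stood above and DNMT3B (644 RPM, the others at least 1046) below. TBX3 (0.44 RPM) and SOSTDC1 (0.88 RPM) in ESC library 3 and WNT16 (0.15 RPM) in ESC library 1 were single or few reads beside 0 in the others.

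Among the aRB27 libraries, DNMT3B was 59.5 RPM in library 4, above the others (at most 38.5 RPM). SOX3, S100A6 and CRABP2 (0.59 RPM each in library 3) and CER1 (1.32 RPM in library 4) were 1 or 2 reads beside 0 in the other 3. CDKN1C was 0 in library 1 and at most 0.67 RPM in the others.

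Cells sorted on day 6 differed between the media by limma's test of that difference at 10 named genes. On the log2 scale, GK15 minus aRB27, these were SPON2 (-3.70), FAM20C (-3.10), FAM129A (-2.71), WBSCR17 (-2.27), COL5A1 (-1.84), AASS (1.80), FDX1 (1.95), PDZK1 (2.71), PTRF (3.21) and HAPLN1 (3.25). Each of these 10 lost its call on leaving out at least 1 library.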

How the results depend on the processing

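The count of 2424 genes changed between GK15 and ESC was 1401 with a mean of at least 20 RPM, 1209 with a log2 difference of at least 2 and 1 with every library as labelled. It stayed within 1.5 times under the other alternatives and was 1850 to 2419 on leaving out each library in turn. With the title code as a replicate block it was 2411, and 5 for GK15 against aRB27. Labels give no replicate numbers, so the code pairs no samples by design. The count of 11 genes between the media was 2 and 58 with pseudocounts of 0.1 and 10, 18 without the filter, 4 with a mean of at least 20 RPM, 5 in edgeR, 87 in DESeq2, 24 with only the compared groups, 0 with all reporter groups, 24 with these less the 6 libraries against their gate, 0 as labelled and 6 in the line 656BTAG42 alone. Leaving out a library gave 0 to 27. The causes were not tested. No direction reversed. With 2 GK15 libraries and 1.66 M reads in the shallower, levels near 1 RPM rest on 1 or 2 reads.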

Other observations

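The genes ranked 11 to 20 by size among those whose groups do not overlap were read after seeing the data. Among the increases were GREM1, a secreted BMP antagonist, at 232 and 267 RPM in GK15 libraries 1 and 3 against 0.74, 0, 0 and 9.16 RPM in reporter ESC, and LAMA3, a laminin chain, at 124 and 104 RPM against 0, 0, 0.44 and 0 RPM. ABCG1, which exports cholesterol, was 173 and 148 RPM and listed at 0 in all 4 ESC libraries, at least 708-fold higher. ADCYAP1, which encodes the neuropeptide PACAP, was 76.6 and 124 RPM and at 0 in the 4 reporter ESC and the 5 transgene-free ESC libraries, at least 443-fold higher than in reporter ESC. FMO5, a flavin monooxygenase, PCP4L1, VSNL1, a neuronal calcium sensor, and RBM24, an RNA-binding protein of muscle, were each over 100 RPM in both GK15 libraries and at most 2.64 RPM in reporter ESC.

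Among the decreases, DRAXIN, a repellent of axons and WNT antagonist, was at 0 in both GK15 libraries and at 94.6, 71.6, 119 and 44.2 RPM in reporter ESC, at least 111-fold lower. CLU, the extracellular chaperone clusterin, was 0.42 and 1.21 RPM against 113, 151, 152 and 134 RPM, with 142 to 300.4 RPM in transgene-free ESC. USP44, a deubiquitinase of stem cells, was 1.25 and 2.41 RPM against 182, 214, 260.2 and 141 RPM. LPP, an adhesion plaque protein, was 0.83 and 0.60 RPM against 71.6, 157, 135 and 288 RPM. GPR176, CACHD1, VAT1L and LDB2 showed the same order of groups.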
